A study of Mus musculus with 66 samples.

Results

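In the hippocampus of C57BL/6 mice injected with a brain extract, 153 named pseudogenes and related sequences were followed by sequencing of poly(A) RNA. They are the rows whose symbol ends in -ps or -rs, with or without a digit, and whose mean deposited value over the libraries of the 12-month cohort was at least 0.2. Of 55421 rows in each table, 1609 carry such a symbol, 153 of these reached the mean, and 149 of the 153 end in -ps and 4 in -rs. They were thus chosen by their level in the 12-month table, and that level is given as a description.

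The 66 libraries form 12 groups. In mice of the 12-month-old cohort, libraries of mice that received an Alzheimer's disease brain extract (AD) numbered 6 at 1 month post injection (mpi), 6 at 3 mpi and 7 at 5 mpi. Libraries of mice of that cohort that received a control brain extract (Ctrl) numbered 5, 6 and 7 at the same times. In mice of the 3-month-old cohort there were 6, 5 and 3 AD libraries and 5, 5 and 5 Ctrl libraries at 1, 3 and 5 mpi. All groups are of 1 strain with no transgene named in the labels. The labels do not say whether the cohort name is the age at injection or at collection. They name neither the sex of an animal nor a batch, and nothing in them says whether libraries of a group come from separate animals, so p-values measure the spread between libraries. The libraries held 42462638 to 65907005 reads counted to genes.

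A processed pseudogene arises when the messenger RNA of a gene is copied into DNA and inserted elsewhere in the genome, usually by the enzymes of LINE-1 retrotransposons. The copy lacks introns and promoter and decays slowly, so a young copy is nearly identical to its parent. Messages of abundant housekeeping genes, above all ribosomal protein genes, have left the most copies. An unprocessed pseudogene is a duplicated gene that kept its introns, and a unitary pseudogene is a gene that lost its function without a second copy. A sequencing read from a stretch that copy and parent share cannot be assigned to either by its sequence.

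The label of the set holds for most rows but not for all. In the GENCODE vM21 annotation of GRCm38, 149 of the 153 symbols were matched and 4 were not (Eef1a1-ps1, Ndufs5-ps, Nsa2-ps1 and Rpsa-ps7). Of the matched rows, 106 are annotated as processed and 9 as transcribed processed pseudogenes, which together are the 115 processed copies below. The other 34 comprise 13 transcribed unprocessed, 6 unprocessed and 3 transcribed unitary pseudogenes, 8 genes annotated as protein-coding, 3 long intergenic RNAs and 1 long RNA from a bidirectional promoter. A single exon is annotated for 112 of the 115 processed copies. By symbol, 59 rows are copies of ribosomal protein genes, 68 are copies of another gene with a row of its own, and 26 name no gene of the tables; the 127 copies share 102 parents. The rows lie on 21 chromosomes, with 10 rows on X and 1 on Y. Another gene is annotated over 23 of them on the same strand and over 42 on the opposite strand. The nearest match of the 115 processed copies in a protein-coding transcript of another gene had a median identity of 99.33% over the aligned part. By this measure 73 copies had at least 99% and 20 had exactly 100%.

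Most of the results below turn on 6 of the processed copies, and for each a stretch of 60 bases is shown beside the parent's coding sequence, since so little separates copy and parent. Each stretch is the one within the parent's coding sequence with the most differing bases, which are in capitals; all are from GENCODE transcripts of GRCm38, 5′ to 3′ in the sense of the parent. Vcp encodes an ATPase that extracts proteins from complexes and membranes, Morf4l1 a chromatin protein that reads histone H3 methylation, Rpl14 and Rpl34 proteins of the large ribosomal subunit, Apoo a protein of the mitochondrial inner membrane, and Eif4a1 an RNA helicase of translation initiation. Vcp-rs is on the minus strand at chrX:104346696-104346755, Morf4l1-ps1 on the plus strand at chr16:24529853-24529912 and Rpl14-ps1 on the plus strand at chr7:45325328-45325387. Rpl34-ps1 is on the plus strand at chr6:71124741-71124800, Apoo-ps on the minus strand at chr13:107414407-107414466 and Eif4a-ps4 on the plus strand at chr1:60704465-60704524.
Vcp-rs: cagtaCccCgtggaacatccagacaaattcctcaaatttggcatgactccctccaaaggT
Vcp: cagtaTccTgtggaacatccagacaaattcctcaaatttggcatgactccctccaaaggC
Morf4l1-ps1: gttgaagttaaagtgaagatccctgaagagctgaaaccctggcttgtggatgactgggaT
Morf4l1: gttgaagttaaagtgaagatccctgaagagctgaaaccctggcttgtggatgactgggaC
Rpl14-ps1: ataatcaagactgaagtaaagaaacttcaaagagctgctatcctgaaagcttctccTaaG
Rpl14: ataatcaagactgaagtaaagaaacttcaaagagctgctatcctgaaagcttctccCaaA
Rpl34-ps1: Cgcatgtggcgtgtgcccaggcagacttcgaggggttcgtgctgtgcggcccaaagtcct
Rpl34: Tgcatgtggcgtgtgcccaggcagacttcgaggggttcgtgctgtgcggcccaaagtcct
Apoo-ps: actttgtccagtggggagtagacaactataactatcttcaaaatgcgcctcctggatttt
Apoo: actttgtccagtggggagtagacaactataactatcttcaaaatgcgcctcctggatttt
Eif4a-ps4: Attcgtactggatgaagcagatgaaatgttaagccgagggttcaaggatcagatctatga
Eif4a1: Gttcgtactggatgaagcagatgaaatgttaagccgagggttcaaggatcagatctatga

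Over its whole annotated length of 2406 bases, Vcp-rs differed from the Vcp transcript at 8 bases and by 15 gap bases. Morf4l1-ps1 (969 bases) had 2 mismatches, Rpl14-ps1 (653 bases) had 4 mismatches and 3 gap bases, and Rpl34-ps1 (354 bases) had 2 mismatches. Apoo-ps (586 bases) had none, so that no read inside it can be assigned by sequence alone. Eif4a-ps4 (1218 bases) had 1 mismatch against Eif4a1, its nearest match, since its symbol names no row of the tables. The share of 100-base windows of the copy that occur letter for letter in another gene's transcript was 71.8% for Vcp-rs, 87% for Morf4l1-ps1, 60.6% for Rpl14-ps1, 98.4% for Rpl34-ps1, 100% for Apoo-ps and 91.1% for Eif4a-ps4. Morf4l1-ps1 lies inside Lpp on the same strand, and Rpl14-ps1 inside Trpm4 on the opposite strand. How the authors counted reads that match several places, and whether they used strand, is not given in the sources used here, so all levels of near-identical copies below are uncertain.

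The deposited value of a gene is its RPM (reads scaled to a fixed total per library), further divided by a scaling factor of the library. Most of the 153 rows were low: their median of the 12-month means was 0.495 (0.564 in the 3-month table), 41 had a mean of at least 1 and 9 of at least 10. A value of 0.2 is 8.49 reads in the shallowest and 13.18 reads in the deepest of the 66 libraries. Just inside the minimum were Rps18-ps3 (0.201), Ap3m1-ps (0.2) and Rpl21-ps8 (0.2), and just outside were Rps2-ps6 (0.2 when rounded, and below it before), Mrpl48-ps (0.195) and Hmgb1-ps3 (0.192). All 153 passed the filter on low values in each fit, and 151 also had a mean of at least 0.2 in the 3-month table. At the other end, 874 of the -ps and -rs symbols had no read in any library.

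The highest levels belonged to rows that are not retrocopies. Tmem250-ps, annotated as a long intergenic RNA, had a 12-month mean of 52.4, or 21.1 per kb of its transcript. It was followed by Tmem181b-ps (32.1, or 13.2 per kb), Ndufb1-ps (24.4, or 28.3 per kb), Ube2d-ps (17.2, or 9.32 per kb), Gpr137b-ps (14.7, or 4.90 per kb), Ppp4r1l-ps (14.6, or 2.58 per kb) and Pisd-ps1 (13.8, or 12.4 per kb). Of the 10 highest by mean only Eif4a-ps4 (10.8, or 8.90 per kb) and Ptges3-ps (8.52, or 17.8 per kb) are processed copies; the remaining one is Zfp862-ps (10.8, or 1.78 per kb), a unitary pseudogene. These 10 held 61.4% of the summed level of the 153, which averaged 324.7.

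Per kb, most copies were far below their parents. For the 122 rows with an annotated length and a named parent, the median level per kb was 2.11% of the parent's, 34 rows were under 1%, 19 were over 10% and 6 were above the parent. The 6 were Gpr137b-ps (4.90 per kb, against 2.99 for Gpr137b, a lysosomal membrane protein), Pisd-ps1 (12.4 against 3.53 for Pisd, the mitochondrial enzyme that makes phosphatidylethanolamine), Bambi-ps1 (1.43 against 1.08 for Bambi, a decoy receptor of TGF-beta signalling), Rps10-ps2 and Rps10-ps1 (1.84 and 0.511 against 0.495 for Rps10) and Nlrp5-ps (0.199, with Nlrp5, a gene of the oocyte, listed at 0). The row of Rps10, the gene of a protein of the small ribosomal subunit, averaged 1.16 in AD and 1.34 in Ctrl libraries of 12 months at 5 mpi, while Rpl34 averaged 84.4 and 82.7 there. Lengths of parents are merged exons and those of copies are transcripts, so the percentages depend on that choice.

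In the processed copies 4 libraries stood apart from the others of their cohort and time. Among the 7 AD libraries of 12 months at 5 mpi, the summed level of the 115 processed copies was 144 to 149 in libraries 1, 2, 4 and 5. It was 102 to 111 in libraries 3, 6 and 7, and 95.3 to 106 in the 7 Ctrl libraries of that age and time. Eif4a-ps4 alone made up part of this step, with 16.8 to 18.9 in the 4, 4.73 to 5.78 in the other 3 and 7.17 to 10.4 in Ctrl. The summed level of the 34 rows of other kinds showed no such step. It was 201 to 212 in the 4, 199 to 218 in the other 3 and 188 to 229 in Ctrl. A few high rows make up most of that sum, such as Tmem250-ps (12-month mean 52.4), Tmem181b-ps (32.1) and Ndufb1-ps (24.4). A step in its low rows could hardly show there. Processed pseudogenes outside the set moved as the 115 did. Their sums were 752 to 774 in the 4, 648 to 696 in the other 3 and 628 to 657 in Ctrl. The 115 processed copies reached similar sums in other groups. They ran from 113 to 144 in AD at 12 months and 1 mpi, and from 131 to 148 in Ctrl at 3 months and 1 mpi.

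A measure of the libraries moved with that step. Unprocessed pseudogenes that match mitochondrial transcripts over at least 90% of their length at 95% identity or more, which are nuclear copies of mitochondrial DNA, amounted to 0.426 to 0.432% of the signal of the mitochondrial transcripts in the 4 libraries, 0.225 to 0.267% in the other 3 AD libraries and 0.270 to 0.315% in Ctrl. That share reached 0.414% in AD libraries of 12 months at 1 mpi, and was 0.518 to 0.605% in Ctrl libraries of 3 months at 1 mpi. The 4 were also the AD libraries of 12 months at 5 mpi with high Xist, the RNA that coats the inactive X (726 to 962). Their Ddx3y, a Y-linked helicase, was at 0 to 0.169. The other 16 libraries of 12 months with high Xist had Ddx3y at 0.0659 to 1.28, and the 10 of 3 months at 0 to 0.543. Of the other AD libraries of this group, library 3 had Xist at 0.0171, library 7 at 0.0677 and library 6 at 10.9. The Ctrl libraries of that time with high Ddx3y had Xist at 2.38 to 3.11. Within the AD group, 32 of the 153 (20.9%) were higher in every Xist-high library than in every other, against 4.10% of all genes tested. Within the Ctrl libraries of the same age and time, where 4 libraries were Xist-high too, the count was 4 (2.61%, against 2.62% of all genes). In Ctrl libraries of 12 months at 3 mpi the step ran the other way, with 26 (17%) lower in every Xist-high library, against 10.3% of all genes, and so it did in AD libraries of 3 months at 1 mpi, with 29 (19%) against 10.7%. What part any of these measures has in the results below was not tested beyond the alternatives given.

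**Figure D1:**
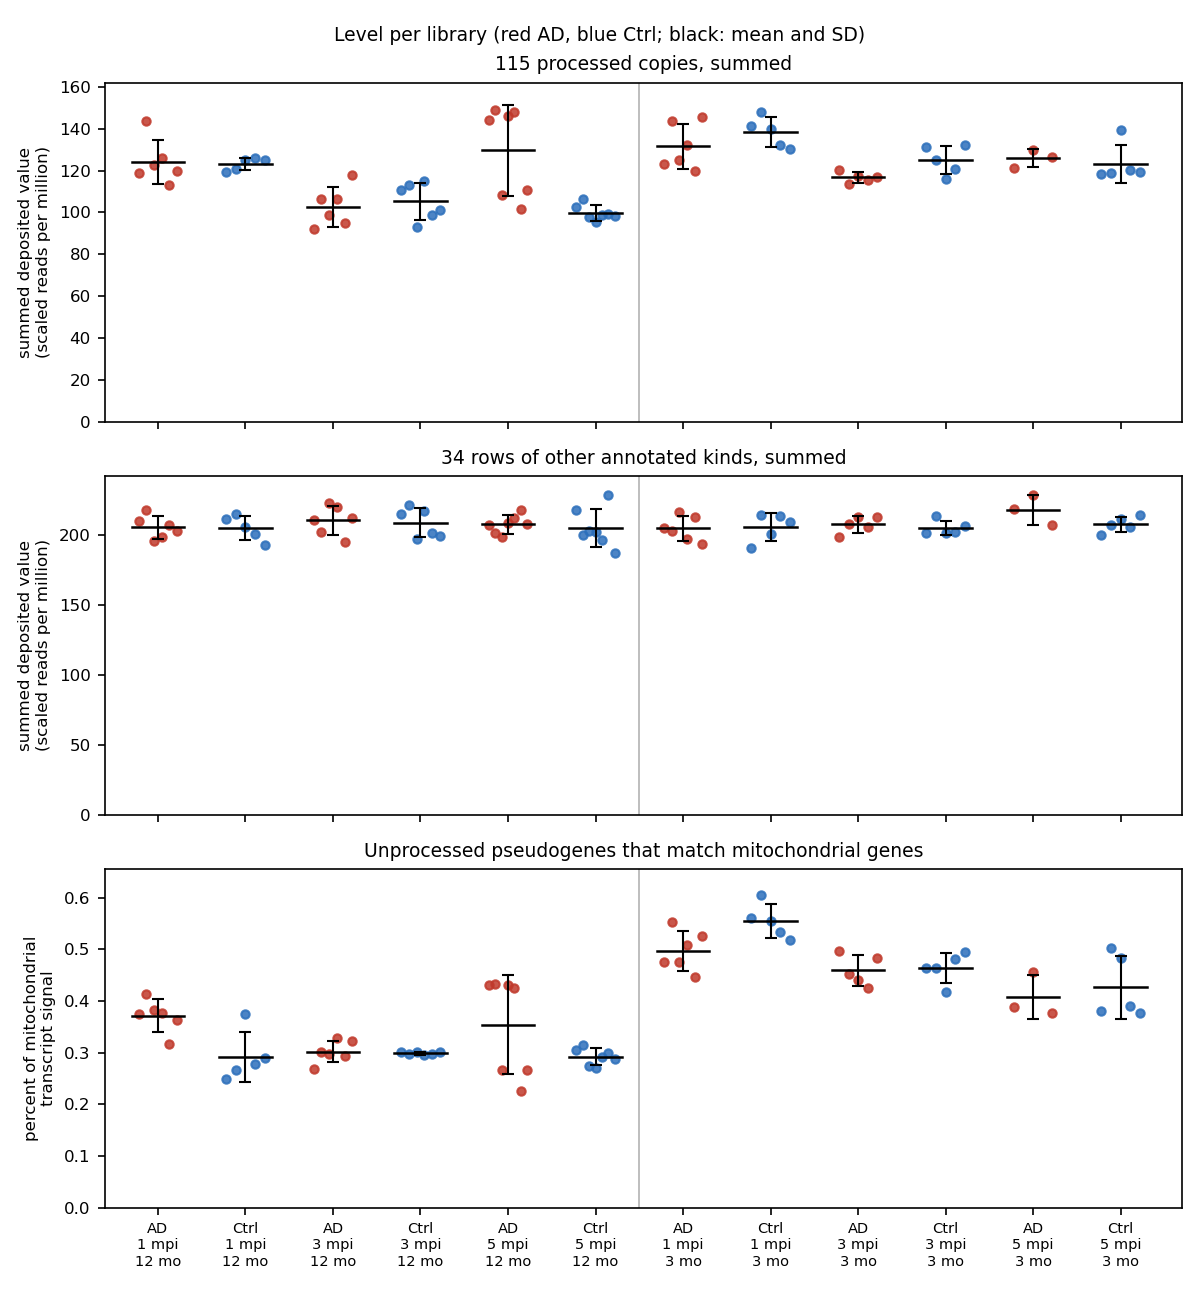
Each dot is 1 library; the vertical axes give the summed deposited value (scaled RPM) of the 115 processed copies (top), of the 34 rows of other annotated kinds (middle), and the signal of nuclear copies of mitochondrial genes as a percent of mitochondrial transcript signal (bottom), for the 12 groups, with AD in red, Ctrl in blue and the mean and SD in black. In the top panel 4 AD libraries of 12 months at 5 mpi lie at 144 to 149 and the other 3 at 102 to 111. In the middle panel, where a few high rows weigh most, the sums of that group are not split.

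The comparison of AD with Ctrl extract 5 months after injection in the 12-month cohort asks whether these transcripts differ by extract late. Processed copies of 5 genes were higher in AD, namely Vcp-rs, Morf4l1-ps1, Rpl14-ps1, Rpl34-ps1 and Apoo-ps; no other of the 153 passed the test and none was lower (limma on log2(value + 1), Benjamini-Hochberg adjusted p below 0.05 over all 20084 genes). Over all genes 11 (0.0548%) passed, also all upwards. The 5 copies were known from earlier results of these data to be high in these AD libraries. Their calls, and the counts of the set beside all genes, are therefore a description and no independent test. In all, 127 of the 153 had a positive difference, with a median log2 difference of 0.12 and a median ratio of means of 1.33. Over all genes tested 50.1% were positive, with a median log2 difference of 0.00 and a median ratio of 1. At an unadjusted p below 0.05, 56 of the 153 were higher and 2 lower, while 4.30% of all genes were higher at that level.

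Vcp-rs had values of 2.87, 4.59 and 5.51 (lowest, median, highest) in the 7 AD libraries, and 2.20, 2.63 and 2.80 in the 7 Ctrl libraries. The groups did not overlap, and the 3 lowest AD libraries, at 2.87 to 3.58, lay just above Ctrl. The log2 difference was 0.52 (SE 0.0918, limma adjusted p = 0.00689), with means of 4.11 ± 0.988 in AD and 2.52 ± 0.247 in Ctrl (SD, n = 7 each). Vcp itself averaged 361 in AD and 375 in Ctrl (limma adjusted p = 0.651).

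Rpl34-ps1 had 0.530, 1.10 and 1.31 in AD libraries, and 0.329, 0.463 and 0.516 in Ctrl libraries. The lowest AD library lay just above the highest Ctrl library. The mean in AD, 0.975, was 2.20 times the 0.443 in Ctrl, with a log2 difference of 0.44 (SE 0.0765, limma adjusted p = 0.00661). Its parent Rpl34 averaged 84.4 in AD and 82.7 in Ctrl (limma adjusted p = 0.914).

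Rpl14-ps1 had 1.62, 2.09 and 2.21 in AD libraries, and 1.12, 1.30 and 1.45 in Ctrl libraries, again without overlap. Here the AD libraries were not split: the 4 that stood apart lay at 1.86 to 2.20 and the other 3 at 1.62 to 2.21. The log2 difference was 0.40 (SE 0.0776, limma adjusted p = 0.0231), while Rpl14 averaged 178 in AD and 186 in Ctrl (adjusted p = 0.759). Trpm4, a cation channel gene on the opposite strand around the copy, averaged 7.08 in AD and 6.56 in Ctrl (adjusted p = 0.823).

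Apoo-ps, the copy with no mismatch, had 0.510, 0.733 and 0.973 in AD libraries and 0.261, 0.358 and 0.451 in Ctrl libraries. All AD libraries lay above all Ctrl libraries, and the 4 that stood apart (0.510 to 0.973) and the other 3 (0.530 to 0.733) overlapped. The log2 difference was 0.37 (SE 0.0636, limma adjusted p = 0.00661), and Apoo averaged 38.3 in AD and 38.1 in Ctrl (adjusted p = 0.984).

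Morf4l1-ps1 had 2.22, 3.02 and 3.93 in AD libraries, and 1.59, 1.91 and 2.39 in Ctrl libraries. The groups overlapped, since 1 Ctrl library lay above the lowest AD library. The log2 difference was 0.42 (SE 0.0868, limma adjusted p = 0.0454), and Morf4l1 averaged 387 in AD and 411 in Ctrl (adjusted p = 0.475). Lpp, an adhesion protein gene on the same strand around the copy, averaged 16 in AD and 13.8 in Ctrl (adjusted p = 0.622).

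**Figure D2:**
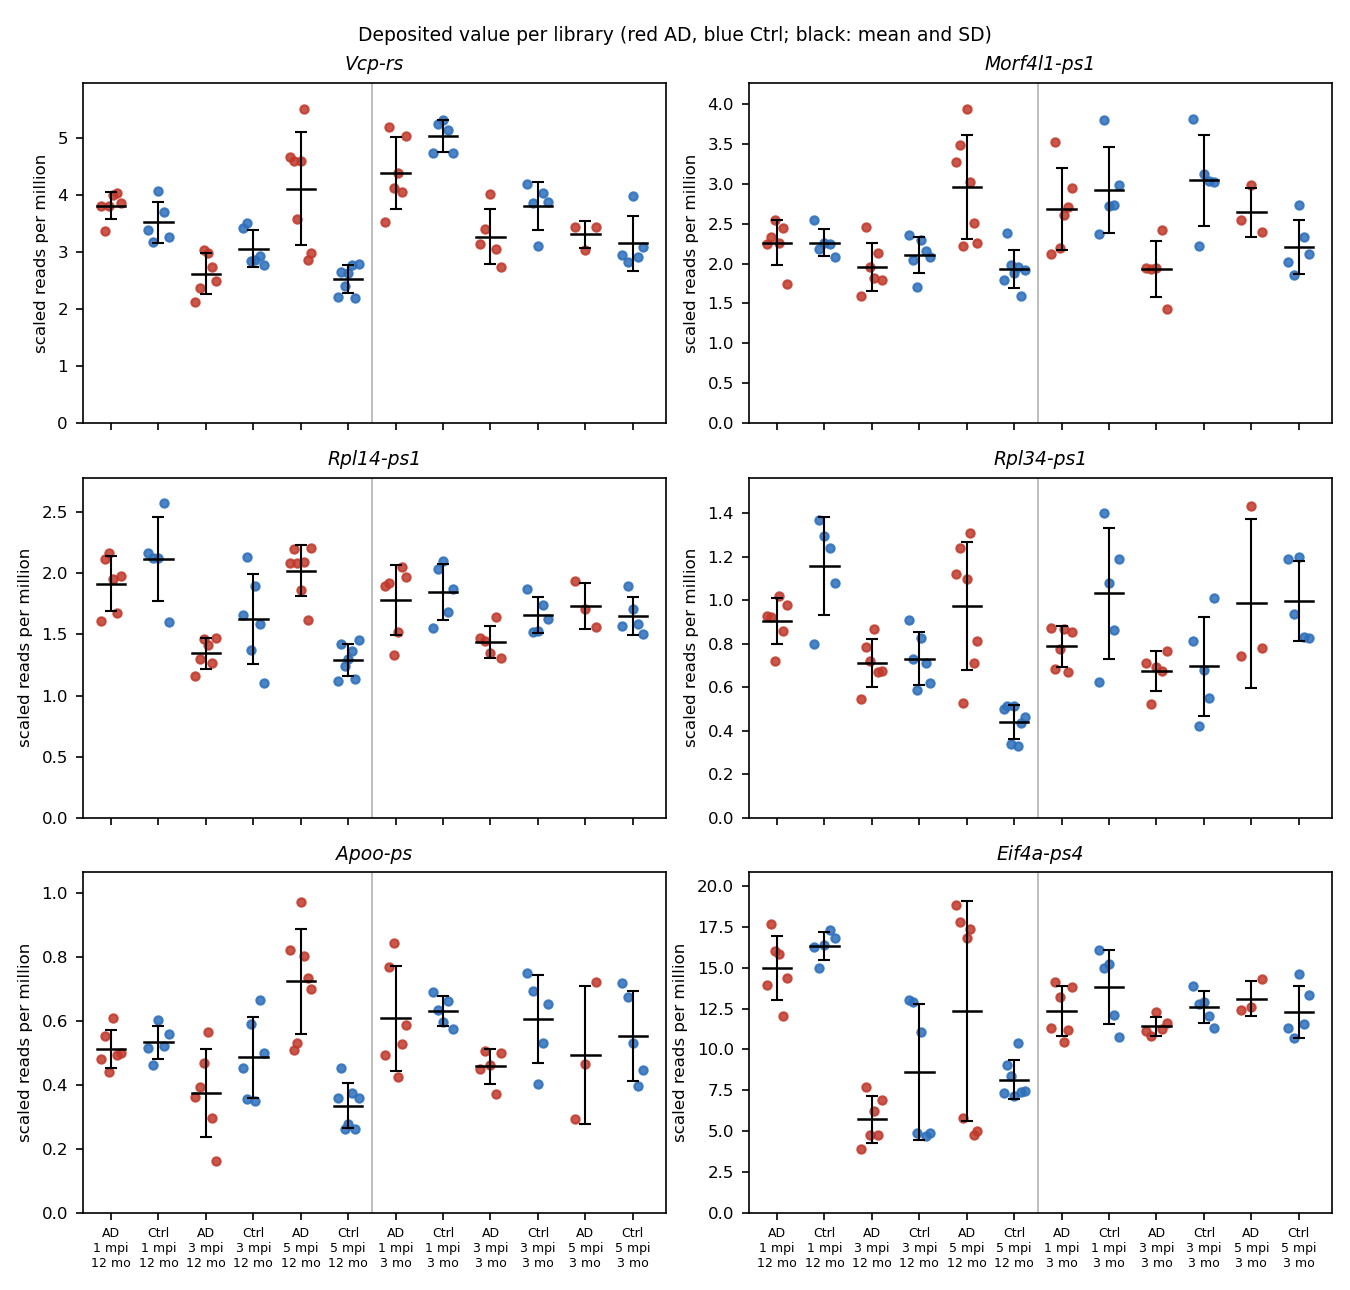
Each dot is 1 library and each panel 1 copy, with the deposited value (scaled RPM) on the vertical axis and the 12 groups on the horizontal axis; AD is red, Ctrl blue, and black marks the mean and SD. At 12 months and 5 mpi the AD dots of Vcp-rs, Rpl14-ps1, Rpl34-ps1 and Apoo-ps lie above all Ctrl dots of that time, and Eif4a-ps4 falls into 2 sets of AD libraries on either side of Ctrl.

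Every AD library was above every Ctrl library for 8 of the 153, where 0.119% of all genes tested showed this. They were the 4 just named, Itpa-ps1, Rab7-ps1, Rps25-ps1 and Rps19-ps6. Rab7-ps1, a copy of the late endosome GTPase gene, had means of 0.717 in AD and 0.357 in Ctrl (limma adjusted p = 0.126), and Rps25-ps1 0.55 in AD and 0.283 in Ctrl (adjusted p = 0.312). Rpl3-ps1 had the second highest log2 difference of the set, 0.46, with means of 5.20 in AD and 3.46 in Ctrl, and did not pass (adjusted p = 0.0612). The lowest differences were those of Zfp133-ps (-0.22, limma adjusted p = 0.583), Rpl17-ps4 (-0.16, 0.705) and Rpl31-ps11 (-0.16, 0.580).

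The kinds of rows can be set side by side. Of the 115 processed copies 99 had a positive difference, with a median ratio of 1.36, and of the 59 ribosomal protein copies 49 did, with a median ratio of 1.38. Of the 34 rows of other kinds 25 were positive, with a median ratio of 1.11, and 0 passed with limma (9 at an unadjusted p below 0.05, 8 of them higher). Tmem250-ps averaged 53.5 in AD and 54.2 in Ctrl (limma adjusted p = 0.930), and Pisd-ps1 14 in AD and 13 in Ctrl (adjusted p = 0.809). Among the processed copies the median ratio was 1.26 for the 12 with up to 10% of their windows in another gene, 1.38 for the 33 with over 10 to 50%, and 1.38 for the 70 with more, and the 5 that passed are all among the last. The difference between these classes was not tested.

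Most parents had a negative difference. Limma called 0 of the 101 parents tested (16 at an unadjusted p below 0.05, 15 of them lower), as did edgeR and DESeq2, 24 had a positive difference, and their median ratio of means was 0.967. Among the 126 copies set beside their parents, the ratio of AD to Ctrl was higher for the copy than for the parent in 109.

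**Figure D3:**
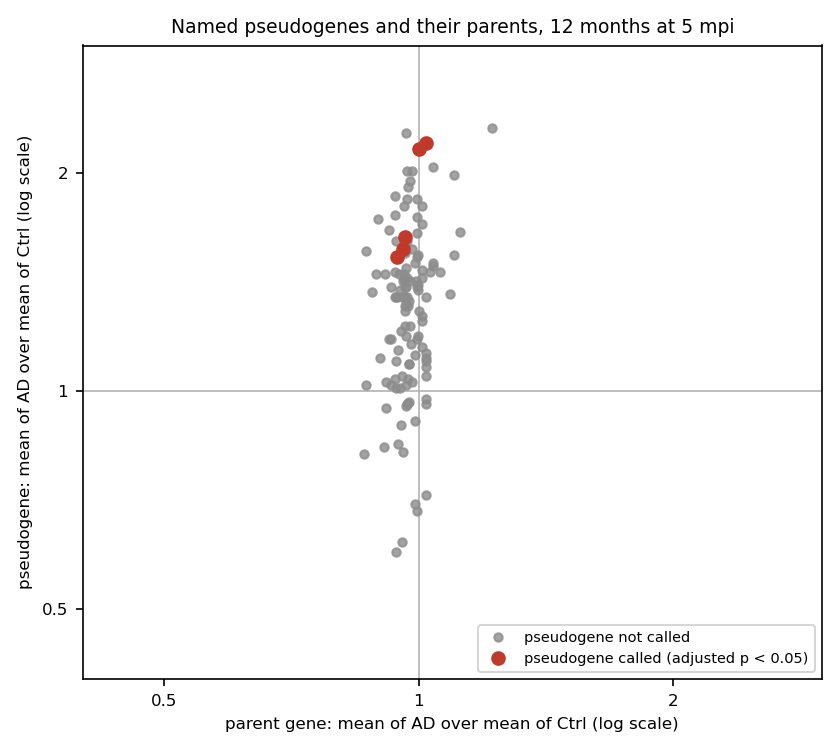
Each dot is 1 of 126 copies with a parent in the tables; the horizontal axis gives the parent's mean in AD over its mean in Ctrl at 12 months and 5 mpi, and the vertical axis the same ratio for the copy, both on a log scale, with the 5 copies that passed the test in red. Parents lie between 0.861 and 1.22 and copies between 0.6 and 2.31.

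Without the 4 libraries that stood apart, AD against Ctrl at 5 mpi gave no called gene in the set or in the whole table (limma, 19 of the 153 at an unadjusted p below 0.05, 15 of these higher), and 106 of the 153 were positive, with a median log2 difference of 0.06. The log2 difference was then 0.37 for Rpl14-ps1 (limma adjusted p = 0.881) and 0.31 for Apoo-ps (adjusted p = 0.776). It was 0.23 for Vcp-rs, 0.22 for Rpl34-ps1 and 0.19 for Morf4l1-ps1 (adjusted p = 0.881 for each). For Vcp-rs, Rpl14-ps1, Rpl34-ps1 and Apoo-ps every AD library lay above every Ctrl library, so a positive difference with 3 AD libraries was fixed in advance. The 4 left out also had the highest summed processed copies of the AD group (144 to 149, against 102 to 111). Leaving them out thus had to lower the summed difference, and it left 3 AD libraries. No conclusion is drawn from the loss of calls or the smaller median. Of the 5 copies, Rpl14-ps1 and Apoo-ps had sizes closest to those of the full group. With the mitochondrial copy signal of each library as a covariate 3 of the 153 passed (Vcp-rs, Rpl34-ps1 and Apoo-ps). With Xist-high or Ddx3y-high as a term 5 passed. AD and Ctrl each hold 4 Xist-high libraries of 7, so this term could not move the log2 differences and cannot address a split seen in AD alone. In a fit of the 14 libraries of this time alone none of the 153 passed, as the closing section lists.

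Eif4a-ps4 showed the widest split. At 12 months and 5 mpi it had 16.8 to 18.9 in the 4 AD libraries that stood apart, 4.73 to 5.78 in the other 3, and 7.17 to 10.4 in Ctrl. The AD values thus lay on both sides of Ctrl, and the log2 difference of 0.35 (SE 0.244) did not pass (limma adjusted p = 0.711); without the 4 libraries it was -0.56. At 3 mpi its Ctrl libraries were split as well, with 3 between 4.72 and 4.91 that are Xist-high and 3 between 11.1 and 13.0 that are not, while the 6 AD libraries lay between 3.90 and 7.67. The mitochondrial copy signal of those Ctrl libraries, 0.295 to 0.301%, was not split. At 1 mpi AD libraries had 12.0 to 17.7 and Ctrl libraries 15 to 17.3. In the 3-month cohort all 29 libraries lay between 10.4 and 16.1. Eif4a1 averaged 276 in AD and 295 in Ctrl at 12 months and 5 mpi (limma adjusted p = 0.581).

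At the earlier times of the 12-month cohort no copy passed. At 1 mpi limma called 0 of the 153 (9 at an unadjusted p below 0.05, and 0 by edgeR and by DESeq2), against 0.00498% of all genes, and 79 had a positive difference. The outermost were Zfp133-ps (0.29), H2-T-ps (0.29) and Cd63-ps (0.28, limma adjusted p = 0.178) above, and Atp5pb-ps (-0.24), Rpl35a-ps2 (-0.22) and Itpa-ps1 (-0.21) below. At 3 mpi limma called 0 (0% of all genes; 6 of the 153 at an unadjusted p below 0.05, and 0 by edgeR and by DESeq2), and 74 were positive. Rpl38-ps2 (0.32), Rps13-ps2 (0.25) and Rps15a-ps4 (0.25) were outermost above, and Eif4a-ps4 (-0.42), Rpsa-ps10 (-0.20) and H1f11-ps (-0.20) below, each with a limma adjusted p of 0.995. Zfp133-ps, the lowest of the set at 5 mpi, was thus among the highest at 1 mpi.

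Unlike Zfp133-ps, Rpl34-ps1 had a lower mean in AD than in Ctrl at 1 mpi and a higher one at 5 mpi. Its mean at 1 mpi was 0.906 in AD and 1.16 in Ctrl, and at 3 mpi 0.711 in AD and 0.732 in Ctrl. The difference between the AD effects at 5 and 1 mpi was 0.62 on the log2 scale (SE 0.116, limma adjusted p = 0.0534) and did not pass; it was 0.42 for Vcp-rs (adjusted p = 0.639) and 0.49 for Rpl14-ps1 (adjusted p = 0.307). Of that difference of effects, 0 of the 153 passed with limma (33 at an unadjusted p below 0.05), and 1 passed with edgeR and 1 with DESeq2, against 0.00498% of all genes with limma. Averaged over the 3 times, 0 passed with limma (0.00996% of all genes; 20 of the 153 at an unadjusted p below 0.05, all higher; 0 with edgeR and 1 with DESeq2), and 121 were positive with a median ratio of 1.10.

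In the 3-month cohort no copy passed at any time. Limma, edgeR and DESeq2 each called 0 of the 153 at 1, 3 and 5 mpi, in the mean over the times and in the difference between 5 and 1 mpi, and limma called 0% of all genes in each. At an unadjusted p below 0.05 there were 16, 27 and 4 at 1, 3 and 5 mpi, 13 in the mean and 10 in the difference of effects. The numbers with a positive difference were 65, 66 and 86 at 1, 3 and 5 mpi. At 3 mpi Morf4l1-ps1 was the lowest of the set, with 1.43, 1.94 and 2.43 (lowest, median, highest) in 5 AD libraries and 2.21, 3.03 and 3.81 in 5 Ctrl libraries. The groups overlapped, and the log2 difference of -0.46 (SE 0.114) did not pass (limma adjusted p = 0.865). The same copy was among the 3 highest at 5 mpi (0.18, adjusted p = 1), with Rpl30-ps1 (0.19) and Mid1-ps1 (0.18); Klk2-ps (-0.25), Rps18-ps5 (-0.19) and Cd63-ps (-0.16) were lowest. At 1 mpi Gstp-ps (0.15), Rpl38-ps2 (0.14) and Rpl17-ps4 (0.14) were outermost above, and Pgam1-ps2 (-0.27), Itpa-ps1 (-0.25) and Vdac3-ps1 (-0.24) below. At 3 mpi Ndufb1-ps (0.28), Nlrp1c-ps (0.28) and Ppp1r2-ps1 (0.22) were highest, and Rps6-ps4 (-0.30) and Rps2-ps10 (-0.27) followed Morf4l1-ps1 at the low end.

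The 5 copies that passed at 12 months were also measured in the younger cohort at 5 mpi. Vcp-rs had 3.04, 3.44 and 3.45 in its 3 AD libraries, and 2.82, 2.92, 2.94, 3.09 and 3.99 in its 5 Ctrl libraries, so the groups overlapped. The difference between the cohorts in the AD effect at 5 mpi was 0.46 for Vcp-rs, 0.46 for Rpl34-ps1 and 0.36 for Rpl14-ps1 on the log2 scale, each with a limma adjusted p of 0.858. Of the 153, 0 passed this test with limma, edgeR or DESeq2 (0% of all genes with limma), 32 had an unadjusted p below 0.05, 31 of them higher at 12 months, and 119 were positive. With 3 AD libraries, the 3-month group at 5 mpi is the smallest of the study.

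**Figure D4:**
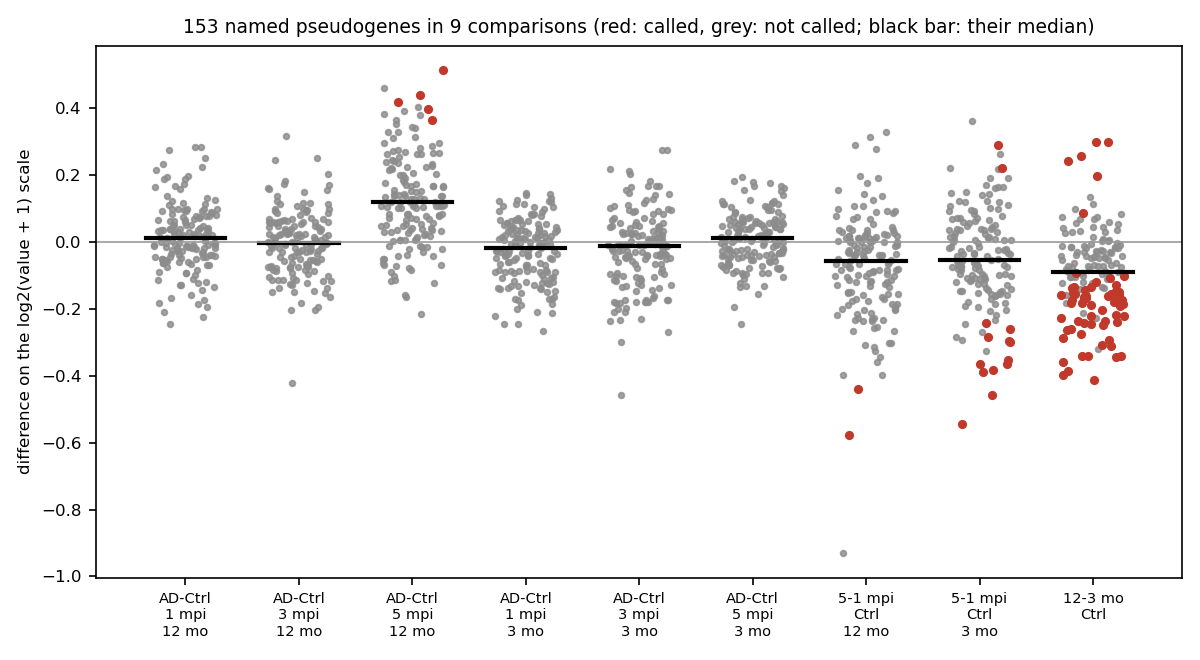
Each dot is 1 of the 153 rows and each column 1 comparison, with the difference on the log2(value + 1) scale on the vertical axis; red dots passed the test, grey dots did not, and the black bar is the median of the 153. The median is 0.12 for AD against Ctrl at 12 months and 5 mpi, -0.06 and -0.05 for Ctrl at 5 against 1 mpi at 12 and 3 months, and -0.09 for Ctrl of 12 against 3 months.

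Ctrl libraries were also compared between times after injection. In the 12-month cohort, Rpl34-ps1 and Rpl14-ps1 were lower at 5 mpi than at 1 mpi: limma called these 2 of the 153, and 5 of all genes (0.0249%), of which 4 were lower (0.0199%). Rpl34-ps1 had 0.329, 0.463 and 0.516 (lowest, median, highest) at 5 mpi, and 0.800, 1.08, 1.24, 1.30 and 1.37 in the 5 libraries at 1 mpi, without overlap. Its log2 difference was -0.58 (SE 0.0838, limma adjusted p = 0.000877). Rpl14-ps1 had 1.12, 1.30 and 1.45 at 5 mpi, and 1.6, 2.12, 2.12, 2.17 and 2.58 at 1 mpi, again without overlap, with a log2 difference of -0.44 (SE 0.085, limma adjusted p = 0.0415). These are the Ctrl libraries against which both copies were higher in AD at 5 mpi, so the comparisons share them.

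The other copies described above did not pass. Vcp-rs averaged 2.52 at 5 mpi and 3.52 at 1 mpi in Ctrl (-0.36, limma adjusted p = 0.254), Apoo-ps 0.335 and 0.533 (-0.20, adjusted p = 0.496), and Eif4a-ps4 8.16 and 16.3 (-0.93, SE 0.267, adjusted p = 0.262). At an unadjusted p below 0.05, 29 of the 153 were lower and 4 higher, and 52 had a positive difference. The median ratio was 0.853 for the processed copies and 0.998 for the 34 rows of other kinds. In the same cohort Rpl14-ps1 averaged 2.02 in AD at 5 mpi and 2.12 in Ctrl at 1 mpi, and Rpl34-ps1 0.975 and 1.16. A test of these 2 groups against each other was not run.

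In the 3-month cohort the difference between 5 and 1 mpi in Ctrl was wide over the whole transcriptome, with 1836 of 19976 genes called (9.19%), 811 lower (4.06%) and 1025 higher (5.13%). Of the 153, 14 were called, 12 lower and 2 higher. Both directions together, that is about the share called over all genes, so the number called is no trait of the set. The copies named below are a description. Vcp-rs had 2.82, 2.92, 2.94, 3.09 and 3.99 in the 5 libraries at 5 mpi, and 4.73, 4.74, 5.14, 5.25 and 5.32 in the 5 libraries at 1 mpi, without overlap. Its log2 difference was -0.55 (SE 0.092, limma adjusted p = 0.00127). The copies of metabolic enzyme genes that fell were Pgam1-ps2 (1.49 at 5 mpi, 2.40 at 1 mpi) and Tpi-rs11 (0.257 and 0.507), both of glycolysis, Got2-ps1 (1.16 and 1.64), of the malate-aspartate shuttle, and Sms-ps (0.887 and 1.43), of spermine synthesis. Oaz1-ps and Oaz2-ps, copies of the antizyme genes that limit polyamines, also fell, to 2.14 and 0.273 at 5 mpi against 2.99 and 0.499 at 1 mpi.

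The copies of ribosomal protein genes went both ways. Rps6-ps4, Rpl9-ps6, Rpl9-ps4 and Rpl21-ps15 fell, as did Tpt1-ps3, a copy of the gene of a protein whose own translation is regulated, with log2 differences between -0.28 for Rpl9-ps4 and -0.39 for Tpt1-ps3. Rpl36-ps12 rose, with 0.842 at 5 mpi and 0.507 at 1 mpi (limma adjusted p = 0.0208), and so did Rpl3-ps2, with 0.497 and 0.280 (adjusted p = 0.035). The parents went mostly upwards: 25 of 101 were called, 23 higher and 2 lower. Rpl21 averaged 340 at 5 mpi and 301 at 1 mpi (log2 difference 0.18, limma adjusted p = 0.00641) while Rpl21-ps15 had 0.463 and 0.880 (-0.37, adjusted p = 0.00283), and Rpl9 had 281 and 259 (0.12, adjusted p = 0.0211) while Rpl9-ps6 had 1.43 and 2.15 (-0.38, adjusted p = 0.00667). The signal of nuclear copies of mitochondrial genes was 0.426% at 5 mpi and 0.554% at 1 mpi (mean of 5 libraries each). With that signal as a covariate, 2 of the 153 were called, both higher and none lower, and 67 of all genes were called.

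Copies were mostly lower in the older cohort. The comparison of Ctrl libraries of 12 months with Ctrl libraries of 3 months, with equal weight to the 3 times, had 63 of the 153 called, 57 lower and 6 higher (limma on recovered reads of both tables). Over all genes 4419 of 21297 were called (20.7%), 2288 lower (10.7%) and 2131 higher (10%). Only 30 of the 153 had a positive difference, against 46.1% of all genes, and their median ratio of means was 0.855. The rule used the 12-month level, which is 1 side of this comparison: 168 of the -ps and -rs symbols had a mean of at least 0.2 in the 3-month table, and 151 of these are in the set. The counts therefore describe the chosen rows, and nothing is read from their share against that of all genes. Each cohort has its own deposited table, so levels set across them below carry 2 scalings. Cohort, table and any difference in handling cannot be told apart from age. Below, fell and rose stand for lower and higher in the 12-month cohort.

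Of the 57 that fell, 50 are processed copies, 5 are of other kinds and 2 were not matched, and 28 are copies of ribosomal protein genes. Ribosomal protein copies had a median ratio of 0.818, with none of the 59 called higher. The strongest was Atp6v0c-ps2, a copy of the gene of the proton pore of the vacuolar ATPase. It had group means of 2.28, 2.07 and 2.26 at 1, 3 and 5 mpi at 12 months, and 3.57, 2.91 and 3.23 at 3 months, without overlap between the ages' means. Its log2 difference was -0.41 (SE 0.0568, limma adjusted p = 2.54e-07), and Atp6v0c averaged 235 at 12 months and 237 at 3 months (adjusted p = 0.743).

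Eef1a1-ps1, named for the gene of the translation elongation factor that delivers aminoacyl-tRNA, averaged 2.17 at 12 months and 3.16 at 3 months (log2 difference -0.40 in the joint fit, limma adjusted p = 2.78e-07), against 2630.9 and 2691.5 for Eef1a1 (adjusted p = 0.205). Got2-ps1 averaged 0.858 at 12 months and 1.37 at 3 months (-0.36, adjusted p = 8.23e-07), and here the parent Got2 also fell, to 240 against 260 (adjusted p = 6.7e-05). Rps10-ps2 averaged 0.885 at 12 months and 1.36 at 3 months (-0.34, adjusted p = 1.88e-06). Pgam1-ps2 (1.24 and 1.92), Oaz1-ps (1.79 and 2.51), Rpl31-ps8 (1.78 and 2.50) and Rps2-ps10 (0.451 and 0.776) fell too. The highest row to fall was Tmem181b-ps, a transcribed unprocessed pseudogene, with 32.1 at 12 months and 40 at 3 months (limma adjusted p = 0.00107).

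The other ribosomal protein copies called lower had log2 differences from -0.29 for Rps23-ps1 (1.96 at 12 months, 2.58 at 3 months) to -0.11 for Rps18-ps3 (0.187 and 0.276). In this range were Rps23-ps2, Rpl17-ps10, Rpl30-ps1, Rpl36-ps12, Rpl21-ps15, Rpl3-ps1, Rps10-ps1, Rpl17-ps5, Rpl36a-ps3, Rps16-ps2, Rps13-ps1, Rps25-ps1, Rpl10-ps5, Rpl9-ps7, Rpl28-ps1, Rps18-ps5, Rpl9-ps4, Rpl31-ps11, Rps12-ps3, Rpl10a-ps1, Rpl21-ps8, Rpl18-ps2 and Rps27a-ps2. Rpl36-ps12 (0.381 at 12 months, 0.627 at 3 months) was thus lower in the older cohort, and higher at 5 than at 1 mpi in Ctrl of 3 months.

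Copies of genes of other functions filled the same range. Gpx4-ps2, a copy of the gene of the peroxidase that repairs membrane lipids, averaged 3.27 at 12 months and 4.27 at 3 months (log2 difference -0.31, limma adjusted p = 0.00292). Copies of vesicle traffic genes were Rab11b-ps2 (0.830 and 1.14), Rab7-ps1 (0.494 and 0.711) and Tmed10-ps (0.324 and 0.5), and Eef2-ps2 (0.336 and 0.488) is a copy of the gene of a translation elongation factor. Tpt1-ps3 averaged 4.62 at 12 months and 5.36 at 3 months. Tubb4b-ps1, Sms-ps, Chchd2-ps, Pgk1-rs7, Fabp3-ps1, Ube2n-ps1, Cd63-ps, Rbm3-ps, Nsa2-ps1, Nudc-ps1, Glns-ps1 and Akt2-ps were lower as well, the last by the least (-0.09). Of unprocessed pseudogenes Pisd-ps2 (3.08 and 3.56) and Mrip-ps (0.256 and 0.459) were lower.

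Among the copies called in AD at 12 months and 5 mpi, Vcp-rs, Morf4l1-ps1 and Apoo-ps were lower in the older cohort. Vcp-rs had 3.03 at 12 months and 4 at 3 months (log2 difference -0.31, limma adjusted p = 3.2e-05). Morf4l1-ps1 had 2.10 and 2.72 (-0.26, limma adjusted p = 0.000793), and Apoo-ps 0.451 and 0.597 (-0.14, limma adjusted p = 0.0085). Rpl14-ps1 (1.68 and 1.72, adjusted p = 0.522) and Rpl34-ps1 (0.777 and 0.909, adjusted p = 0.0993) did not pass. The age comparison includes the Ctrl libraries used in the comparisons by extract and by time.

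The 6 that were higher in the older cohort were mostly not retrocopies. Amd-ps4, the 1 processed copy among them, is named for the gene of the enzyme that supplies decarboxylated S-adenosylmethionine to polyamine synthesis. It had group means of 0.547, 0.643 and 0.547 at 1, 3 and 5 mpi at 12 months, and 0.324, 0.248 and 0.250 at 3 months, with a log2 difference of 0.30 (SE 0.0525, limma adjusted p = 2.17e-05). The others were Znf41-ps (3.31 at 12 months, 2.46 at 3 months), Olfr1372-ps1 (1.10 and 0.732), Nlrp5-ps (0.669 and 0.404), Ndufb1-ps (24.4 and 21) and Tmem250-ps (53 and 49.4, limma adjusted p = 0.0428).

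Parents were called in both directions. Of 101 parents 47 were called, 32 higher and 15 lower at 12 months. Of the 54 copies that fell and have a named parent, the parent fell for 13 and rose for 8. Rpl14 averaged 188 at 12 months and 166 at 3 months (limma adjusted p = 1.4e-05) and Rpl34 85.3 and 75 (adjusted p = 0.000382), with no call for either copy. Median ratios of the processed copies were 0.986 for those with up to 10% of windows in another gene, 0.794 for those with over 10 to 50% and 0.812 for those with more, and 0.979 for the 34 rows of other kinds; these differences were not tested.

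Library measures differed between the ages as well. The nuclear copies of mitochondrial genes amounted to 0.248 to 0.374% of the mitochondrial signal in 12-month Ctrl libraries and 0.377 to 0.605% in 3-month Ctrl libraries, without overlap. With this measure as a covariate, 2 of the 153 were called between the ages, both higher, and 761 of all genes, and 85 of the 153 had a positive difference. With Xist-high or Ddx3y-high as a term, 59 of the 153 were called and 3938 of the 21297 genes. All 8 choroid plexus markers (Ttr, Folr1, Kl, Kcnj13, Clic6, Otx2, Sostdc1 and Aqp1) were called lower at 12 months by limma, with a median log2 difference of -1.35, but 1 by edgeR and 3 by DESeq2. Of 5 oligodendrocyte markers 4 were lower by limma, and of 5 microglial markers 3 were higher. Limma also called lower 3 of 5 ependymal markers, 2 of 10 markers of hippocampal neurons and 1 of 6 of thalamus and habenula. It called 0 of 5 markers each of astrocytes, of endothelial cells and pericytes, and of red blood cells. Of the genes that mark carry-over of ribosomal RNA, 3 of 3 tested were lower by limma, edgeR and DESeq2 (median log2 difference -0.48), and of 13 mitochondrial transcripts limma called 5 lower and 1 higher. The summed choroid plexus signal ranged from 116 to 5513.9 in 12-month and from 97.8 to 7704.1 in 3-month Ctrl libraries. The part of these tissues and library measures in the copies' differences was not tested. In bulk RNA, fewer cells of a type and less RNA per cell cannot be told apart.

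**Figure D5:**
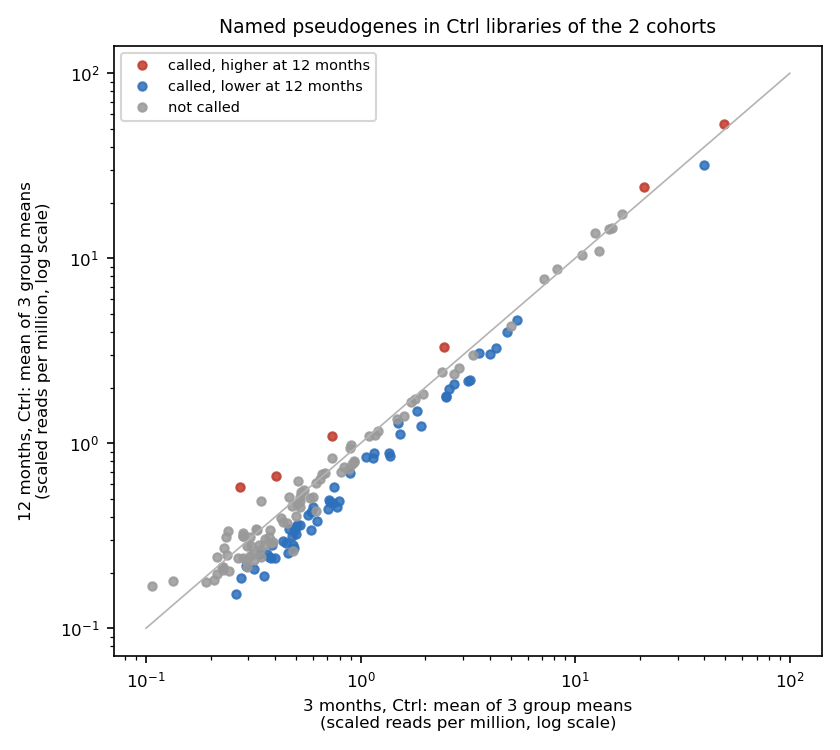
Each dot is 1 of the 153 rows, with its mean of the 3 Ctrl group means at 3 months on the horizontal axis and at 12 months on the vertical axis, in scaled RPM on log scales; the line marks equal levels. Blue dots (57) were called lower and red dots (6) higher at 12 months, and the blue dots lie below the line, the highest of them being Tmem181b-ps at 32.1 against 40.

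Genes that silence retroelements and genes that degrade faulty messages were read beside the copies. At 12 months and 5 mpi, limma, edgeR and DESeq2 each called 0 of 26 tested genes of retroelement silencing and restriction between AD and Ctrl (2 at an unadjusted limma p below 0.05), and 0 of 16 of nonsense-mediated decay (0 at that level). Between the cohorts, where 20.7% of all genes were called, 8 of the 26 were called (3 higher, 5 lower at 12 months). Among them were the DNA methyltransferases Dnmt1 and Dnmt3a. Of the 16, 4 were called (Rbm8a, Upf2, Upf3a and Upf3b, all higher at 12 months). Between 5 and 1 mpi in 3-month Ctrl libraries, where 9.19% of all genes were called, 6 of the 26 were called (1 higher, 5 lower) and 2 of the 16 (Smg1 and Upf2, both lower). Markers of hippocampal neurons were present in all 12 groups, with summed levels of 10 genes between 2077.4 and 3158.9.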

How the data were processed

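The members, gene lists and tests were chosen with earlier results of these data known. Poly(A) RNA of mouse hippocampus was sequenced after random priming, per the labels' protocols. The submitters' processing notes name STAR, Picard, edgeR and the build GRCm38; how reads were counted, the annotation, strand and multiple matches were not stated in any source used here. Deposited values, 1 table per cohort, are a normalized signal. As the values themselves show, they are the authors' RPM divided by a library scaling factor. Every value was a whole multiple of 1 read of its library within 0.01 reads, and reads were recovered from this.

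Tests used limma 3.58.1 (R 4.3.3), with trend, on log2(value + 1) over the 6 groups of a cohort, after edgeR's filterByExpr on the recovered reads, which all 153 members passed, and with Benjamini-Hochberg adjustment over all genes tested. A call is an adjusted p below 0.05. Ages were compared in 1 fit of the recovered reads of both tables with TMM scaling over the 12 groups. Fold differences on this scale understate those of low genes. Other settings were a pseudocount of 0.1, no filter, a filter at a mean of 1, relative-log-expression scaling, edgeR 4.0.16, DESeq2 1.42.0, the compared groups alone, a replicate block, each library left out and a covariate of silent genes; 3 more were chosen after seeing the data, namely a term for Xist-high libraries, a covariate of mitochondrial copies and the fit without 4 AD libraries. Same-numbered libraries were not paired.

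Types, lengths, overlaps and sequences come from GENCODE vM21 on GRCm38, matched by symbol, and identities from BLAST 2.17.0. Identities are those of the best local alignment to protein-coding transcripts of other genes. Shares of windows were taken over other genes' transcripts of all types, on either strand. Genes named are members called in any comparison, the 10 highest members, the 3 highest and 3 lowest in each comparison of extracts, those beside the minimum of 0.2, their parents and the 5 known from earlier results. Eif4a-ps4 is among the 10 highest, and is given in detail because of a split seen in its values. A gene annotated around 1 of the copies is not reported here.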

Additional observations from a re-analysis of the deposited data

Results flagged for a closer look

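Of 176 groups checked over 16 items (the 10 highest rows, the 5 called copies and the summed processed copies), 7 held a library whose gap to its nearest neighbour was wide for the range of its group, and chance alone gives this in about 1 of 20 groups. In Ctrl libraries of 3 months at 5 mpi, library 3 had a summed level of the processed copies of 140, with the next at 120, and the same library had Vcp-rs at 3.99, with the next at 3.09. In AD libraries of 12 months at 1 mpi, library 2 had the lowest Vcp-rs, 3.37, with the next at 3.80, and the highest Tmem250-ps, 57.5, with the next at 51.2. Ndufb1-ps was 27.2 in Ctrl library 2 of 12 months at 5 mpi, with the next at 23.8. Gpr137b-ps was 18.2 in AD library 4 of that age and time, with the next at 14.4. Zfp862-ps was lowest in Ctrl library 1 of 12 months at 3 mpi, at 8.65, with the next at 10. The cause of these gaps was not tested.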

How the results depend on the processing

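Counts are of the 153 rows called. For AD against Ctrl at 12 months and 5 mpi the count was 5, and it became 3 with no filter, 2 with a filter at a mean of 1, 0 with the compared groups alone, 8 with DESeq2, 3 with the mitochondrial copy covariate and 0 without the 4 AD libraries that stood apart. With single libraries left out it ranged from 3 to 9, with 3 without Ctrl 1, 3, 4 or 6 or AD 1, 2 or 5, and 9 without AD 6. Morf4l1-ps1 had an adjusted p of 0.0698 with a pseudocount of 0.1. The mean AD effect at 12 months (0) gave 1 with DESeq2, and 0 to 1 with single libraries left out (1 without Ctrl 4 or AD 2 of 3 mpi). The change of the AD effect between 1 and 5 mpi (0) gave 1 with edgeR, 1 with DESeq2, 1 with the mitochondrial copy covariate and 0 to 1 with single libraries left out (1 without Ctrl 1 of 1 mpi or AD 3, 6 or 7 of 5 mpi).

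Ctrl at 5 against 1 mpi of 12 months (2) gave 1 with no filter, 0 with the filter at a mean of 1, 6 with the mitochondrial copy covariate and 1 to 3 with single libraries left out (1 without Ctrl 1, 2, 3 or 4 of 1 mpi or Ctrl 1, 3, 4, 5 or 6 of 5 mpi). At 3 months (14) it gave 9 with the filter, 2 with the covariate and 11 to 15 with single libraries left out. The age comparison (63) gave 23 with the filter, 2 with the covariate and 57 to 65 with single libraries left out. The filter at a mean of 1 leaves fewer members to test. The covariate also turned 15 age differences that had been called lower to values of 0.21 for Tpt1-ps3, 0.13 for Rpl21-ps15, 0.12 for Sms-ps, 0.10 for Rpl3-ps1, 0.10 for Rps18-ps3, 0.07 for Pgam1-ps2, 0.07 for Ube2n-ps1, 0.06 for Rpl9-ps4, 0.04 for Rpl10a-ps1, 0.04 for Rps2-ps10, 0.03 for Nudc-ps1, 0.03 for Rpl36a-ps3, 0.03 for Vcp-rs, 0.01 for Akt2-ps and 0.00 for Rpl28-ps1, none called. The cause was not tested; among Ctrl libraries the covariate does not overlap between the ages, while some AD libraries of 12 months lie above some libraries of 3 months. With the replicate block Ctrl at 5 against 1 mpi of 12 months gave 1, and no other count moved by over 1.5 times. Same-numbered libraries had correlations over 0.1 in 1 of 5, 3 of 6 and 4 of 7 pairs at 1, 3 and 5 mpi of 12 months. At 3 months these were 3 of 5, 1 of 5 and 0 of 3. At 12 months their median correlation was 0.238 at 5 mpi, against -0.0281 for other pairs, and -0.173 at 1 mpi, against 0.0697. Whether the numbers pair libraries cannot be told from these mixed values. The other counts, all of 0, were 0 under every setting run.

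A value of 0.2 rests on 8.49 to 13.18 reads, so differences of the lowest rows are limited by counting, and assignment of shared reads cannot be judged from gene totals.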
